A study of Homo sapiens with 7 samples.

Results

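Silencing of CCR4-NOT deadenylases was compared with silencing of PARN and nocturnin in NCI-H520 cells, a line established from a human squamous lung carcinoma. The CCR4-NOT arm held 3 arrays (anti-CNOT6-shRNA, anti-CNOT6L-shRNA and anti-CNOT7-shRNA) and the other arm held 2 (anti-PARN-shRNA and anti-NOC-shRNA), so 5 of the 7 arrays of the series were compared, chosen by their titles alone. The remaining 2 arrays were control transfections, an empty vector and a non-target vector. All cells, controls included, received 6 µg of pLKO.1 plasmid by lipid transfection, were put under puromycin at 6 µg/mL from 12 h and were harvested at 72 h. Each shRNA has 1 array, so a difference between the arms is measured against the spread between different shRNAs, and no shRNA has a replicate. Protein levels were not analysed here. The labels give the CNOT6L plasmid the same target accession as the nocturnin plasmid, so the identity of the former is uncertain. The CNOT6 and PARN arrays lay in slide row 1 with both controls, and the CNOT6L, CNOT7 and NOC arrays lay in slide row 2, so each arm has arrays in both rows. This gave 3 row-matched pairs, CNOT6 minus PARN, CNOT6L minus NOC and CNOT7 minus NOC, of which the last 2 share the NOC array. Levels are log2 signals relative to the 75th percentile of their array, so that 0 is a bright probe and -6 a dim one. Of 42405 gene probes, 34415 were above background on all 5 arrays and were tested, and they named 16673 genes.

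Deadenylases remove the poly(A) tail of mRNA, which is the first step of most mRNA decay in the cytoplasm. CCR4-NOT is a large complex built on the scaffold CNOT1, and it carries a CCR4-type nuclease (CNOT6 or CNOT6L) beside a CAF1-type nuclease (CNOT7 or CNOT8). PARN acts as a free enzyme that binds the mRNA cap and also trims non-coding RNA in the nucleus. Nocturnin (gene symbol NOCT) is a rhythmically expressed relative of the CCR4-type nucleases that is also known to act on NADP(H).

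The targeted mRNAs were examined first. CNOT7 mRNA (probe A_23_P394166) stood at 0.21 on its own array, where the other 4 shRNA arrays ranged from 1.04 to 1.37. That is 46.6% of the mean of its row mates, CNOT6L and NOC. The other CNOT7 probe (A_32_P141262) gave 44.6%. PARN mRNA (A_32_P133244) was at -0.16 on its own array and between 0.59 and 0.93 on the other 4, and was 47.1% of the level on the CNOT6 array of the same row. CNOT6L mRNA (A_33_P3249214) was at -1.98 on its own array and between -1.45 and -1.17 elsewhere, 68.8% of its row mates, with 72.7% at its other probe (A_33_P3277943). CNOT6 mRNA (A_24_P940125) was at 0.21 on its own array and between 0.43 and 0.74 on the others, 86.0% of the PARN array of its row. NOCT mRNA (A_23_P144337) was at -4.96 on its own array and between -4.89 and -4.47 on the others, 88.3% of its row mates. Each targeted mRNA was thus lowest on the array labelled for it, with no overlap, but only CNOT7 and PARN lay near or under 50% of the arrays of their own slide row.

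**Figure D1:**
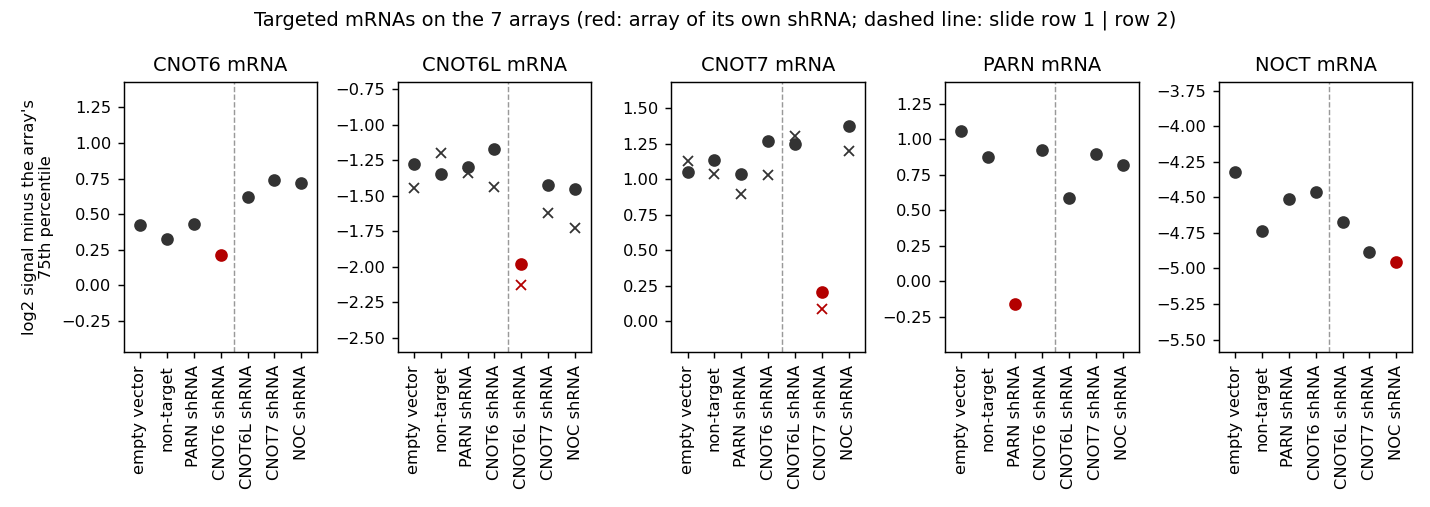
Level of the 5 targeted mRNAs (log2 signal minus the 75th percentile of the array) on the 7 arrays, with red marks on the array of the shRNA against that gene, crosses for a second probe, and a dashed line between slide row 1 and slide row 2. Every panel spans the same number of log2 units, and the widest drops are those of PARN, at -0.16, and CNOT7, at 0.21.

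The rest of the deadenylation machinery differed little between the arms. CNOT8, the paralogue that can take the place of CNOT7, was at 1.24 on the CNOT6 array, 1.75 on CNOT6L, 1.85 on CNOT7, 1.38 on PARN and 1.59 on NOC, so that its order followed the slide row and not the arm. All 12 CCR4-NOT subunits, the targeted CNOT6, CNOT6L and CNOT7 included, were tested, and 1 was higher and 1 lower in all 3 pairs. These were CNOT2, which joins the NOT module, with differences of 0.08, 0.13 and 0.09, and CNOT10, with -0.07, -0.08 and -0.10 (in the order CNOT6 minus PARN, CNOT6L minus NOC and CNOT7 minus NOC, as in all triplets of differences here). Of the 9 other deadenylases, the targeted PARN and NOCT included, 2 were higher and 3 lower in all 3 pairs, against 20.4% and 14.7% of all probes. The 2 higher were ANGEL1 and NOCT. NOCT differed by 0.04, 0.29 and 0.07, and the array of its own shRNA is in both row 2 pairs. ANGEL1, a nuclease related to nocturnin, was at -1.85, -1.90 and -1.76 in the CCR4-NOT arm, -1.98 on PARN and -2.16 on NOC. The mitochondrial deadenylase PDE12 differed by -0.14, -0.03 and -0.32, and PAN3, the partner of the PAN2 nuclease, by -0.26, -0.08 and -0.01. TOB and BTG adaptors bridge CCR4-NOT to poly(A)-bound proteins, and TOB1 differed by 0.02, 0.16 and 0.29 and BTG1 by 0.03, 0.11 and 0.19. TNKS1BP1, a protein associated with the complex, differed by -0.31, 0.17 and 0.18 at its brighter probe and by -0.38, -0.83 and -0.62 at the other, so its probes disagreed. Of the 4 probes of CNOT4, a ubiquitin ligase, 2 were lower in all 3 pairs and the brightest was not. No probe of any of these genes passed the test described next.

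Whether the transcriptome separates the arms was asked with limma, with arm and slide row as terms. At a Benjamini-Hochberg adjusted p under 0.05, 0 probes were higher and 0 lower in the CCR4-NOT arm, which is 0% of those tested in either direction, and the smallest adjusted p was 0.777. At an unadjusted p under 0.05 limma counted 1158 probes higher (3.36%) and 737 lower (2.14%), a split that turned to 783 and 1176 with quantile normalization and to 790 and 1073 after normexp background correction. The CCR4-NOT arrays lay above both other arrays at 2649 probes (7.7%) and below both at 1602 (4.65%). The median arm difference of all probes was 0.05 on the log2 scale. The test had 2 residual degrees of freedom. With 1 array left out the test had 1 residual degree of freedom. Limma then called 102 probes higher and 60 lower without the CNOT6 array, 92 and 59 without PARN, and 2392 and 591 without NOC, but 0 and 0 without CNOT6L and without CNOT7. Without CNOT6 or PARN that fit is CNOT6L and CNOT7 against the NOC array alone, and without NOC it is the CNOT6 array against the PARN array, so the lone array is assumed to vary as CNOT6L and CNOT7 do and the larger counts compare arrays.

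By a rule of size, a 2-fold difference with 1 sign in each row-matched pair, 0 probes were higher and 1 was lower (0% and 0.00291%). It was BHLHE22, a transcription factor of the basic helix-loop-helix family known from neurons. Its level was -3.68 on the CNOT6 array, -2.80 on CNOT6L and -2.89 on CNOT7, against -2.64 on PARN and -1.54 on NOC. The CCR4-NOT arrays were thus all below the other arm, but CNOT6L and PARN were nearly level, and the empty vector (-3.12) and non-target vector (-2.26) fell among the same values. The differences within pairs were -1.04, -1.26 and -1.35, and the arm difference was -1.19 with a standard error of 0.15 (limma, unadjusted p = 7.04e-05, adjusted p = 0.777). The call was lost when all 6 pairs between the arms were required, rows ignored, and after normexp background correction. At 1.5-fold, 42 probes were higher and 11 lower, and 38 and 9 of these lay in the dimmest of 4 equal bins of the tested probes by mean signal. By the same rule of size, leaving out CNOT6L gave 3 higher, leaving out CNOT7 gave 67, leaving out CNOT6 or PARN gave 26 higher and 33 lower, and leaving out NOC gave 1376 and 166.

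Arrays resembled each other by slide row more than by arm. The SD of log2 differences across the tested probes was 0.27 between CNOT7 and NOC, 0.31 between CNOT6L and NOC, and 0.29 between CNOT6L and CNOT7, so that in row 2 the pair from opposite arms with the narrowest spread was closer than the pair from the same arm. In row 1 the CNOT6 and PARN arrays differed with an SD of 0.45. The 6 pairs that crossed rows had an SD of 0.47 to 0.58. Of these, the same-arm pairs were CNOT6 and CNOT6L at 0.47, CNOT6 and CNOT7 at 0.50, and PARN and NOC at 0.56. The pairs from opposite arms were CNOT6 and NOC at 0.50, PARN and CNOT7 at 0.55, and PARN and CNOT6L at 0.58. As 1 array makes up each shRNA, these values are descriptions of the arrays.

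The difference between the arms in row 1 said little about that in row 2. These row differences share no array. Over the 34415 probes, CNOT6 minus PARN and the mean of CNOT6L and CNOT7 minus NOC correlated with Pearson r = 0.07 and Spearman rho = 0.09, as a description across probes, which are not independent replicates. Without CNOT6L r was -0.08, and without CNOT7 it was 0.17. In the brightest of 4 equal bins of probes r was -0.08. In row 1, 1376 probes were at least 2-fold higher and 166 lower on the CNOT6 array, while in row 2 the counts were 106 and 48. Only 9 probes were 2-fold higher and 1 was 2-fold lower in both rows, while 9 were higher in row 1 and lower in row 2, and 9 the reverse. The surplus of higher probes in row 1 went with signal. On the CNOT6 array 8.51% of the dimmest bin but 0.46% of the brightest bin were 2-fold higher than on PARN. The CNOT6 array was also the dimmest, with a 75th percentile of 1366 against 2181 on PARN and 3194 to 3986 in row 2, and the part of this in the counts was not tested.

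**Figure D2:**
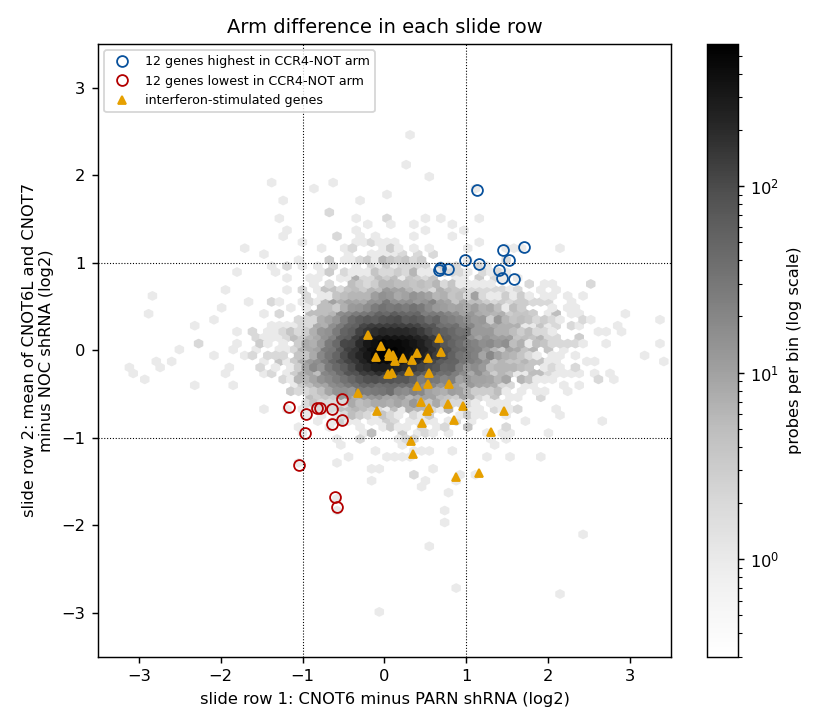
Arm difference of each tested probe in slide row 1 (x axis, log2, CNOT6 minus PARN shRNA) against that in slide row 2 (y axis, log2, mean of CNOT6L and CNOT7 minus NOC shRNA), as grey bins of probe counts with dotted lines at 2-fold; 11 probes beyond 3.5 on an axis are not drawn. The cloud shows little slope (r = 0.07), the named genes of either direction lie in opposite corners because they were chosen for that, and many interferon-stimulated genes lie to the lower right.

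The 12 genes with the largest differences held in all 3 pairs are given in each direction as a description, since they were chosen for this pattern. Most were dim. Among those higher in the CCR4-NOT arm, PDE4B, a phosphodiesterase that breaks down cyclic AMP, led with -6.02 on CNOT6, -6.37 on CNOT6L and -6.22 on CNOT7 against -7.18 on PARN and -7.28 on NOC. Its groups did not overlap, and the empty vector (-6.59) and the non-target vector (-7.04) lay between or beside them. The arm difference was 1.06 with a standard error of 0.22, and the spots of PDE4B differed by 0.93 on the PARN array. The phospholipid flippase ATP8A2 was brighter, at -2.19, -3.61 and -3.36 against -3.63 and -4.31, with differences of 1.44, 0.70 and 0.95. Here CNOT6L and PARN were nearly equal, and of its 2 other probes A_33_P3286859 gave 1.43, 0.53 and 0.78 and A_33_P3286864 gave 0.48, -0.09 and 0.20. MAGEC1, a cancer-testis antigen, was at -4.22, -4.70 and -5.69 against -5.92 and -6.38, differing by 1.71, 1.69 and 0.69, and both controls (-3.79 and -5.18) were above the PARN and NOC arrays. HGF, the ligand of the MET receptor, differed by 1.58, 0.80 and 0.83 (but its spots differed by up to 2.38 on the PARN array), and VTCN1, an inhibitory ligand for T cells, by 0.68, 0.97 and 0.92. The remaining members were CD5L, C1orf94, GPR55, CSMD2, HTR1E, HCG22 and LGALS2, with arm differences from 0.81 for LGALS2 to 1.53 for HCG22. The separate spots of CD5L differed by up to 3.26 log2 on 1 array, those of GPR55 by 3.12, those of LGALS2 by 2.81 and those of HTR1E by 1.98, which, as for HGF, exceeds their arm differences.

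Among the genes lower in the CCR4-NOT arm, SCARNA17 was the brightest. It is a small Cajal body RNA, of the kind that guides modification of spliceosomal RNA. Its probe was printed on 1 spot, so it has no spread between spots. Its level was 0.09 on CNOT6, -0.26 on CNOT6L and -0.08 on CNOT7, against 0.73 on PARN and 0.50 on NOC. The PARN and NOC arrays were above all other arrays, the empty vector (-0.01) and non-target vector (-0.10) included. The pairs differed by -0.64, -0.76 and -0.58, and the arm difference was -0.66 with a standard error of 0.11 (limma, unadjusted p = 0.000444, adjusted p = 0.777). The metalloprotease ADAMTS12 showed the same order, at -4.92, -5.17 and -4.97 against -4.10 and -4.41, with both controls (-4.91 and -4.87) at the level of the CCR4-NOT arm. But its spots differed by 0.79 on the PARN array, more than its arm difference of -0.73. FRMPD1, a scaffold protein with a FERM and a PDZ domain, was at -5.26, -5.62 and -5.35 against -4.68 and -3.69, with controls at -5.34 and -5.33.

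Other genes in this direction leaned on 1 array or were mirrored in the controls. SLC16A14, of the monocarboxylate transporter family, was at -4.37 on NOC but at -6.23 on PARN, where the CCR4-NOT arrays held -6.83, -5.98 and -6.12. PTGIR, the prostacyclin receptor, was at -6.33, -6.79 and -6.57 against -5.38 and -5.96, but the controls spanned from -5.14 (empty vector) to -7.42 (non-target vector) and its spots differed by 1.53 on the NOC array, more than the arm difference of -0.82. WIF1, a secreted Wnt inhibitor, was at -5.09, -4.87 and -4.73 against -3.92 and -4.15, with controls at -3.49 and -5.14. BEST3, a bestrophin chloride channel, differed by -0.97, -0.60 and -1.29, and the kinase SGK2 by -0.78, -0.73 and -0.60. CALB1, a calcium buffer, differed by -0.52, -0.55 and -1.04, ORM1, an acute-phase plasma protein, by -0.52, -0.57 and -0.54, and PITPNM2 by -0.65, -0.50 and -1.19. BHLHE22, SCARNA17, FRMPD1, SLC16A14, BEST3, SGK2 and PITPNM2 were printed on 1 spot, as were ATP8A2, MAGEC1, C1orf94, CSMD2 and HCG22 above. The spread between spots is thus unknown for these genes. All 24 genes had a limma adjusted p of 0.777. Their values on each array are in the plot of the 24 genes.

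**Figure D3:**
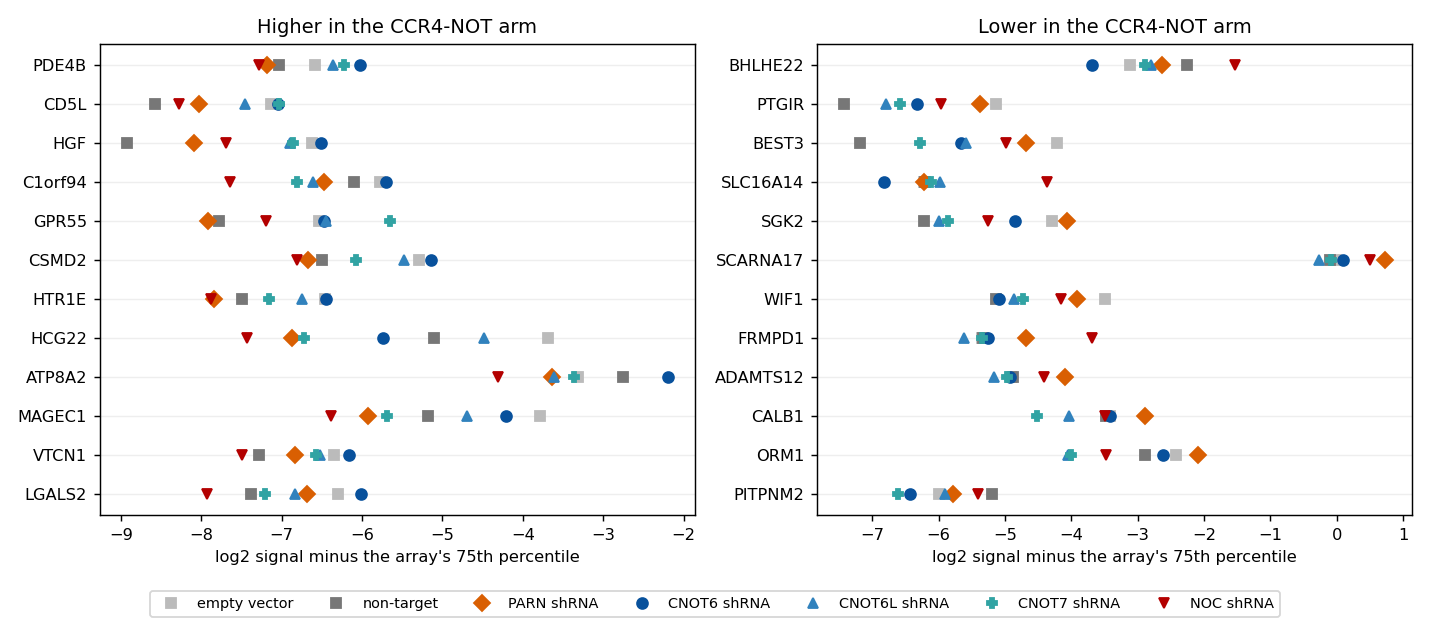
Level (x axis, log2 signal minus the 75th percentile of the array) of the 12 genes with the largest difference held in all 3 row-matched pairs in each direction, with 1 mark per array: blue marks for the CCR4-NOT arm, orange and red for PARN and NOC, grey squares for the controls. SCARNA17, near 0, is the brightest, and for several genes the controls span as far as the arms, as with PTGIR, from -7.42 to -5.14.

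The gene lists showed where the rows disagreed. The clearest case was the interferon-stimulated genes, an antiviral program switched on by interferon receptors through factors, STAT2 and IRF9 among them, that bind the interferon-stimulated response element in promoters. Of 40 listed genes 35 were tested, and 0 passed the test between the arms. In row 1, 30 of 35 were higher on CNOT6 than on PARN, with a median of 0.40, and in row 2 only 3 of 35 were higher in the CCR4-NOT arm, with a median of -0.38. Both pairs of row 2 gave this sign, at -0.40 for CNOT6L and -0.34 for CNOT7. The medians of all genes tested were 0.05 in row 1 and 0.01 in row 2. Thus 29 of 35 (82.9%) were higher in row 1 and lower in row 2, against 27.2% of all genes. This share was not particular to the list. Cytosolic ribosomal proteins had 60 of 73 (82.2%), with a row 2 median of only -0.07. The median arm difference of the list was -0.01.

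By array, the median level of the list was lowest on PARN and highest on NOC, so that the arm that joins them held both ends. It was -1.89 on PARN, -1.68 on CNOT6, -1.40 on CNOT6L, -1.47 on CNOT7 and -1.21 on NOC. The median level of all genes tested lay between -1.09 and -1.05 on these arrays. The controls differed too, at -1.73 for the empty vector and -1.10 for the non-target vector, with 25 of 35 genes higher on the latter (46.6% of all genes). Feature extraction of the NOC image was run on a separate day from that of the other 6, and the part of that in these values was not tested. Relative to all probes the row medians of the list were 0.30 and -0.39, with quantile normalization 0.38 and -0.36, and after normexp background correction 0.27 and -0.23. Without scaling the medians of all probes were -0.58 and 0.25 and those of the list -0.28 and -0.13, so the positive sign in row 1 is relative to other probes. The scaled values of every list here are likewise relative, though not every list changes sign without scaling.

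The 6 members with the widest gap between rows, and ISG15, STAT2, IFI6 and DDX60, were chosen after their values were seen. OAS1, which makes the 2-5A messenger that activates RNase L, was at -7.39 on PARN and -6.25 on CNOT6, and at -5.71 on CNOT6L, -5.67 on CNOT7 and -4.29 on NOC. The antiviral enzyme RSAD2 was at -5.42 and -4.12 in row 1 and at -5.04, -4.95 and -4.06 in row 2, in the same order. IFIT1, which binds foreign capped RNA, was at -3.02 and -2.17, then at -2.75, -1.98 and -1.57. In each of these the CNOT6 array exceeded PARN and the NOC array exceeded both of its row mates. OASL differed by 0.87, -1.61 and -1.29, BST2, which tethers budding virus, by 1.46, -0.98 and -0.41, and EPSTI1 by 0.96, -0.89 and -0.38. The bright effector ISG15, a ubiquitin-like modifier, was at 0.68 on PARN, 1.12 on CNOT6, 1.55 on CNOT6L, 1.57 on CNOT7 and 2.15 on NOC. Of the signalling genes STAT2 differed by -0.20, 0.15 and 0.19. IRF9 and CMPK2 were the members lower in all 3 pairs, IRF9 by -0.32, -0.59 and -0.38 and CMPK2 by -0.09, -0.60 and -0.79, while MX2 was higher by 0.67, 0.26 and 0.03.

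A test of whether the arm difference differs between rows (the interaction of arm and row in limma, 1 residual degree of freedom) called 323 probes with a higher difference in row 2 (0.939%) and 1137 with a lower one (3.3%). Among the 35 interferon-stimulated genes it called 13, all lower in row 2. Its only residual is CNOT6L against CNOT7, and the rows hold different shRNAs, so the calls compare these arrays. These calls depended on the processing, with 6 of 35 after quantile normalization, 0 after normexp background correction and 1 without the trend in the variance. Other lists had calls too. Of 18 cytokines and proteases with AU-rich elements the test called 4, all lower in row 2. That count was 4 after quantile normalization, 0 after normexp background correction and 0 without the trend.

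**Figure D4:**
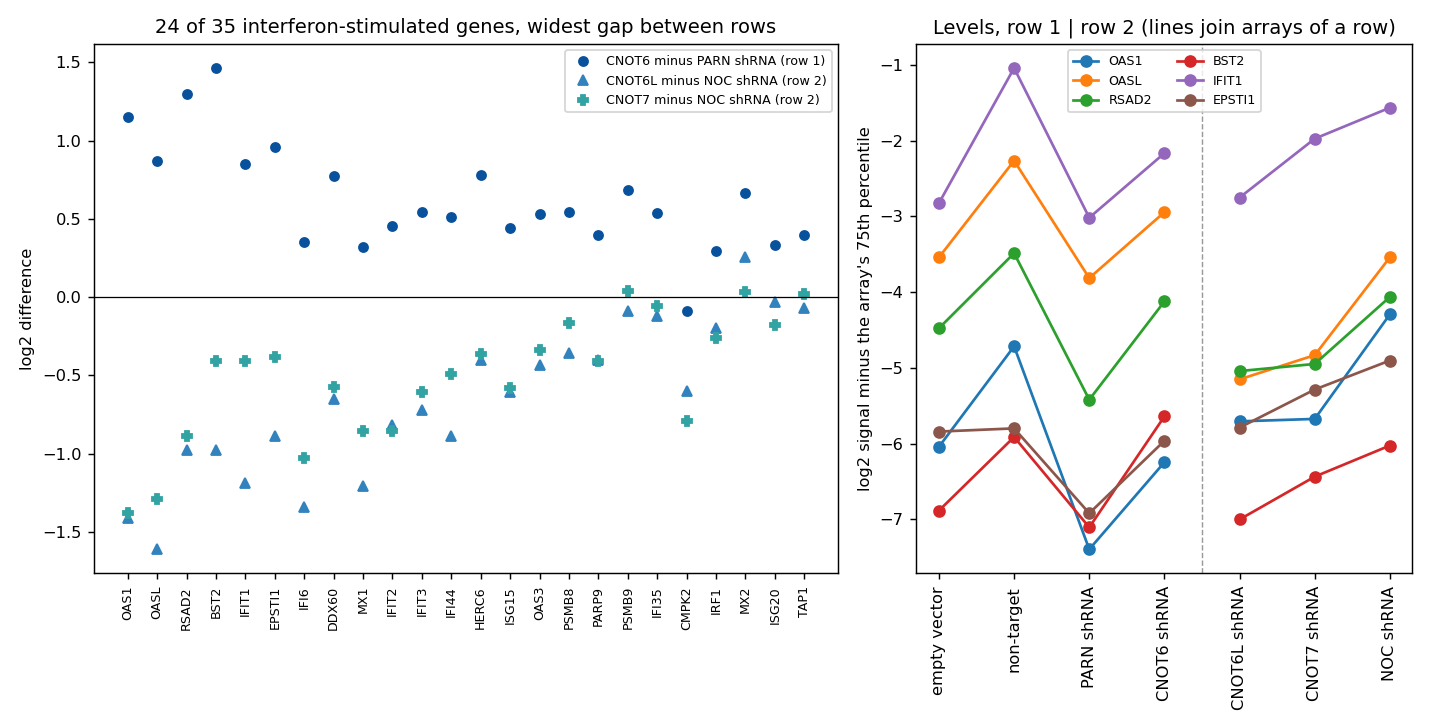
Left, log2 difference in each row-matched pair of the 24 interferon-stimulated genes with the widest gap between slide rows, of 35 tested, ordered by that gap; right, level (log2 signal minus the 75th percentile of the array) of the 6 genes with the widest gap on the 7 arrays, with lines joining arrays of a row. On the left, where genes were chosen for that gap, the CNOT6 minus PARN values lie mostly above 0 and the pairs with NOC mostly below it.

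The promoters of these genes are shown because most members had 1 sign within each row. RefSeq (GRCh38.p14) held a promoter, from 250 bases before to 50 bases after the start, for 28 of the 35 genes. The core letters of the interferon-stimulated response element, GAAA followed by any 2 bases and GAAA again, were searched on both strands (TTTC, any 2 bases and TTTC on the other) with overlaps allowed. They were found in 16 of these 28 (57.1%) and in 996 of 27305 promoters of the table (3.65%). All 16 genes with a match were higher in row 1 and lower in row 2, as were 9 of the 12 without, and the row medians were 0.42 and -0.60 with a match and 0.47 and -0.32 without. A match is a description of letters in this window. The stretches below, 5′ to 3′ on the strand of the gene with 1 match in capitals, show the element in members named here or next to them in the ranking. That of BST2 is chr19:17405726-17405785, IFIT1 chr10:89392482-89392541, EPSTI1 chr13:42992257-42992316, IFI6 chr1:27672314-27672373, DDX60 chr4:168318806-168318865 and ISG15 chr1:1013365-1013424, with BST2, EPSTI1, IFI6 and DDX60 on the minus strand.
BST2: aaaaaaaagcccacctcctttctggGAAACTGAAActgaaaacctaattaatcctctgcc
IFIT1: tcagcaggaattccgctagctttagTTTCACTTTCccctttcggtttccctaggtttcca
EPSTI1: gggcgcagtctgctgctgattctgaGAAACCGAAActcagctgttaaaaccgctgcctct
IFI6: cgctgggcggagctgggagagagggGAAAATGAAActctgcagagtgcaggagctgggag
DDX60: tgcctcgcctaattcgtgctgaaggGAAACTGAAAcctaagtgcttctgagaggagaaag
ISG15: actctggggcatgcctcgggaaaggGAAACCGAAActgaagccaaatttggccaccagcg
IFI6, an inhibitor of apoptosis, differed by 0.35, -1.34 and -1.03, and DDX60, a helicase, by 0.77, -0.65 and -0.58.

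Replication-dependent histones, whose mRNAs end in a stem-loop and not in a poly(A) tail, also took opposite signs. Of 53 tested, 43 were higher on CNOT6 than on PARN (median 0.21) and 5 were higher in the CCR4-NOT arm of row 2 (median -0.17), and 38 (71.7%) combined a higher value in row 1 with a lower one in row 2. Of all genes tested 56.8% were higher in row 1, 51.4% higher in row 2, and 27.2% higher in row 1 and lower in row 2. Histone genes are near-identical copies, so probes may read several at once. H2BC7 was lower in all 3 pairs, by -0.26, -0.60 and -0.70, as was H2AC16, and H3C1 was higher, by 0.46, 0.07 and 0.06. Relative to all probes the row medians were 0.11 and -0.17, and with quantile normalization 0.20 and -0.17.

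Cytosolic ribosomal proteins were higher on CNOT6 than on PARN at 73 of 73 genes (56.8% of all genes), with a median of 0.45, while row 2 gave 0.02 for CNOT6L and -0.16 for CNOT7. RPS23 was at 5.70 on CNOT6 and 5.22 on PARN, and at 5.63, 5.56 and 5.50 on CNOT6L, CNOT7 and NOC. These were the brightest genes of all lists, and the row 1 median went to 0.04 with quantile normalization and 0.05 after normexp background correction, so the size of the shift rests on the scaling. Proteasome subunits (0.22 in row 1, -0.03 in row 2) and nuclear-encoded respiratory chain subunits (0.24 and 0.02) had medians of the same order, with 0.03 and 0.08 in row 1 after quantile normalization. NDUFA2 of complex I differed by 0.16, 0.48 and 0.32.

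NRF2 and antioxidant genes were the list with most members higher in the CCR4-NOT arm at an unadjusted p under 0.05, with 3 of 23 and 0 lower. Of all genes, without XIST and Y-linked genes, 454 of 16654 were higher and 291 lower. The median arm difference of the list was 0.10 against 0.03 for all genes. AKR1C1, a carbonyl reductase, was at 5.61, 5.59 and 5.38 in the CCR4-NOT arm, 5.22 on PARN and 5.14 on NOC, without overlap. ALDH3A1, an aldehyde dehydrogenase, was at 4.15, 3.99 and 3.81 against 3.51 and 3.69, and its dimmer probe gave 0.64, 0.16 and -0.08. FTL, the ferritin light chain, was at 3.78, 3.93 and 3.93 against 2.07 on PARN and 3.71 on NOC, so that its difference lay mostly on the PARN array. The row 1 median of the list was 0.06, and -0.08 with quantile normalization, so that sign depends on the scaling. Relative to all probes the row 1 median was -0.04, and -0.05 with quantile normalization, while the row 2 median was 0.08 and 0.11. The list thus stood above all probes in row 2 only. Beside all genes tested, whose row medians were 0.05 and 0.01, its row 1 median of 0.06 was nearly level.

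Among immediate early factors, 1 of 22 was higher and 0 lower at an unadjusted p under 0.05, beside 454 and 291 of 16654 genes. FOS, a component of AP-1 whose mRNA is short-lived, was at 1.80 on CNOT6 and 1.38 on PARN, and at 1.01, 0.98 and 0.62 on CNOT6L, CNOT7 and NOC. The 3 pairs gave 0.41, 0.39 and 0.36, but the rows differ in level, and CNOT6L and CNOT7 lay below PARN. Its relatives FOSL2 (-0.28, -0.31 and -0.19) and FOSL1 (-0.23, -0.34 and -0.23) had the opposite sign. Cytokines and proteases with AU-rich elements had 0 of 18 in either direction, with IL6 at 1.19, 0.30 and 0.09. This list also had opposite medians in the rows, 0.27 and -0.10. In it 8 of 18 (44.4%) were higher in row 1 and lower in row 2, as were 9 of 22 immediate early factors (40.9%), against 27.2% of all genes.

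The lists of mRNA decay partners and non-coding RNA had median arm differences from -0.04 to 0.05, against 0.03 for all genes. Lower in all 3 pairs were 9 of 25 RNA-binding recruiters (36%, with 3 higher) and 6 of 19 decapping and decay genes (31.6%, with 2 higher). Of all genes 14.9% were lower and 19.6% higher in all 3 pairs. Of the RNA-binding recruiters of deadenylation 1 of 25 was higher and 1 lower at an unadjusted p under 0.05 (454 and 291 of 16654 genes, as for the other counts of this kind). SAMD4A, a Smaug protein, differed by 2.05, 0.74 and 0.12 and was lowest on PARN, at -6.07, but its other probe (A_24_P383523) gave 0.54, -0.17 and -0.22. CELF1, which binds GU-rich elements, differed by -0.13, -0.35 and -0.35. Of the decapping and 5′-to-3′ decay genes 0 of 19 were higher and 1 lower, LSM14B, by -0.22, -0.28 and -0.31, beside DCP2, the decapping enzyme, by -0.22, -0.22 and -0.15. Poly(A)-binding proteins and partners had 0 of 11 in either direction, and PAIP2, which displaces PABP, differed by 0.20, 0.28 and 0.26. Of the telomerase RNA and H/ACA list 1 of 16 was higher and 0 lower. That gene was POT1, a telomere end binder outside the rule for named genes, at 2.14 on CNOT6, 2.37 on CNOT6L and 1.57 on CNOT7, against 0.67 on PARN and 1.58 on NOC, so that CNOT7 and NOC did not separate. The telomerase RNA TERC differed by -0.31, -0.01 and -0.07, and snoRNA host genes had 0 of 18 in either direction.

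In the lists that follow, counts are of members at an unadjusted p under 0.05, to be read against 454 higher and 291 lower of 16654 genes. Of the mitosis and G2/M genes 0 of 29 were higher and 2 lower, PLK1 by -0.40, -0.21 and -0.21 (0.06, -0.30 and -0.33 at its dimmer probe) and ASPM by -0.40, -0.28 and -0.11, while AURKA differed by 0.05, 0.31 and 0.40. DNA replication genes had 0 of 36 in either direction. Of the cyclins D and CDK inhibitors 1 of 14 was higher, CCND3, by 0.56, 0.31 and 0.05. Among p53 targets 0 of 24 were higher and 1 lower, TNFRSF10D, a decoy receptor for TRAIL, at -2.78 on PARN and between -7.36 and -5.70 on the other 4 shRNA arrays. In the clock list 1 of 23 was lower, the repressor CRY2, by -0.35, -0.17 and -0.42, and in the list of NADP(H) and NAD metabolism 1 of 23 was lower, the mitochondrial NAD kinase NADK2, at -1.29, -1.52 and -1.33 against -0.53 and -1.06. Cholesterol and fatty acid synthesis (26 tested) and the unfolded protein and integrated stress response (26 tested) had 0 in either direction. The desmosome and tight junction list had 1 of 25 lower, the tight junction protein CLDN4, by -0.43, -0.38 and -0.09, and among genes singled out in the study AATK, a kinase, differed by -0.66, -0.13 and -0.24 and FGFBP2 by 0.04, 0.15 and 0.11. GUCA1B of the same list lay at 1.32 and 1.46 in row 1 and between -1.13 and -0.77 in row 2, a difference between rows and not between arms. CTSO and DPPA3 were not above background on all 5 arrays.

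At 70 probes all 3 CCR4-NOT arrays, and neither of the others, were above background, and at 14 probes the reverse held. These are 0.165% and 0.033% of the gene probes, and the PARN array, with 82.9% of probes above background, had the lowest share of the 5 (up to 88.0%). All are faint in the arm that was not above background. A fold is a lower bound set by the signal of that arm. Where an array's signal was lower still, the lowest signal that counted as above background took its place. ZNF613, a zinc finger gene, was at least 8.63-fold higher in the PARN and nocturnin arm, but lay at -3.36 on PARN and -7.86 on NOC. A probe of SP140, a nuclear body protein, was at least 5.61-fold higher there, at -4.90 and -6.02, with -9.25, -7.69 and -7.99 in the CCR4-NOT arm. The bound holds for that probe and not for the gene, as its 2 brighter probes were above background on all 5 arrays with arm differences of -0.16 and -0.18. Among named genes seen in the CCR4-NOT arm alone PRR27 had the highest bound, at least 2.86-fold.

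The labelled cell type was checked against its markers. SOX2, amplified in squamous lung tumours, was at 4.58 to 5.45 on the 5 arrays and KRT15 at 1.59 to 1.76, while KRT14 and DSG3 were above background on 0 of 5, TP63 on 1 and KRT5 on 3, so that several defining squamous genes were at or near background. The signal summed over the 12 squamous and basal markers was 4811%, 3300% and 2784% of the 75th percentile in the CCR4-NOT arm and 3911% and 3370% in the other, with SOX2 as its main part, and these ranges overlap. Immune, endothelial, fibroblast and adenocarcinoma marker sums gave 1391% to 1518%, 18.5% to 28.8%, 18.5% to 21.2% and 83.8% to 92.0% in the CCR4-NOT arm against 1370% to 1459%, 17.8% to 25.7%, 18.7% to 19.7% and 72.3% to 88.4% in the other, and the ranges of the arms overlapped in every list. Single bright members, CD14 and NKX2-1, make up most of the immune and adenocarcinoma sums. CD14 was at 3.72 to 3.85 on the 5 arrays. NKX2-1, an adenocarcinoma marker, was at -0.73 to -0.47, above the medians of all genes (-1.09 to -1.05). It was thus brighter than TP63, KRT5, KRT14 and DSG3, which goes against the squamous label. Gene by gene, 5 of 5 adenocarcinoma markers tested were higher on CNOT6 than on PARN (median 0.80, arm median 0.32). So were 7 of 9 immune markers (median 0.43, arm median 0.28), 6 of 8 squamous (0.32), 3 of 4 fibroblast (0.21) and 3 of 5 endothelial markers (0.15). Of all genes 56.8% were higher, with medians of 0.05 and 0.03. Adenocarcinoma and immune markers had median levels of -5.22 and -3.55 on PARN, against -1.05 for all genes. In the dimmest of 4 bins of probes the row 1 median was 0.25. After normexp background correction the row 1 medians were 0.18 for adenocarcinoma and 0.19 for immune markers. The part of these differences in other results was not tested. A bulk array cannot tell fewer cells of a type from less RNA per cell.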

How the data were processed

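Total RNA of NCI-H520 cells was hybridised to 1-colour Agilent arrays, 1 array per plasmid. Per the file headers, the deposited scanner files hold the intensity of each spot as written by Feature Extraction 10.7.3.1, and the authors' series table holds log2 values of the same arrays centred per probe, whose differences equalled those of the scanner files up to a shift per array. Here the processed signal was scaled by the 75th percentile of its array and log2 transformed, control and outlier spots were dropped and spots of a probe averaged. A probe was tested if at least 50% of its spots were well above background on all 5 shRNA arrays. Array quality is given by the share of probes above background and by the SD of probes printed on 2 spots, 0.05 to 0.07 log2; the number of arrays limits the precision. Symbols came from RefSeq accessions (GRCh38.p14, used for names) and named 24827 probes, with the accession of CNOT6 completed by a missing zero. A gene was represented by its tested probe of highest mean signal.

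limma 3.58.1 in R 4.3.3 fitted arm and slide row with lmFit and eBayes with trend (two-sided, Benjamini-Hochberg, threshold 0.05), checked on simulated data. The arm difference weighs row 1 by 3 and row 2 by 4 of 7. Named genes were the targeted genes and the deadenylation machinery, the 12 largest differences held in all 3 pairs in each direction (skipping genes with a probe of opposite sign), up to 3 members per list with 1 sign in all pairs, and genes singled out in the study. The members, the 26 gene lists and the 5 marker lists were chosen with earlier results of these data known. Alternatives covered row, normalization, background, filters, fold thresholds, variance trend and each array left out. Untransfected cells were not analysed here.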

Additional observations from a re-analysis of the deposited data

Results flagged for a closer look

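The difference between the arms was called different between slide rows (limma, interaction of arm and row, adjusted p under 0.05) at 323 probes with row 2 above row 1 and 1137 with row 2 below row 1, and at 13 interferon-stimulated genes with row 2 below row 1, which went to 6 with quantile normalization, 0 after normexp correction and 1 without trend. The rows hold different shRNAs, and the 1 residual degree of freedom is CNOT6L against CNOT7, so these calls compare arrays and carry no spread of CNOT6, PARN or NOC. Among the genes named above, row 2 minus row 1 was -2.55 for OAS1, -2.32 for OASL, -2.23 for RSAD2, -2.16 for BST2, -1.65 for IFIT1, -1.59 for EPSTI1, -1.54 for IFI6, -1.39 for DDX60 and -1.03 for ISG15 on the log2 scale. It was -1.62 for SAMD4A, -1.48 for FTL, -1.08 for POT1 and 2.62 for TNFRSF10D, of which the first 3 were lowest and TNFRSF10D highest on the PARN array among the 5.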

How the results depend on the processing

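The limma count of 0 higher and 0 lower held with no row term, quantile normalization, normexp correction, the series table, both filters on dim probes, outlier spots kept and no trend. Without scaling it was 1 and 7, and in row 2 alone 99 and 62. Leaving out each array gave 0 to 2392 higher and 0 to 591 lower, where without PARN or CNOT6 the fit is row 2 against the NOC array alone, and without NOC it is CNOT6 against PARN. The size rule (0 higher, 1 lower) gave 0 lower without row matching, after normexp correction and at 4-fold. It gave 1 and 3 without scaling, 19 and 6 with probes above background on at least 2 arrays, 73 and 13 without a filter, 42 and 11 at 1.5-fold, 1376 and 166 in row 1 alone, and 26 and 33 in row 2 alone. Leaving out each array gave 3 to 1376 higher and 1 to 166 lower. The correlation between rows, 0.0681, was 0.0330 after normexp correction and 0.0896 with probes above background on at least 2 arrays, and between -0.0777 and 0.175 with arrays left out. Interaction counts, run with alternatives chosen after seeing the data, went to 190 and 338 with quantile normalization, 35 and 35 after normexp correction, and 20 and 29 without trend. The 24 named genes were chosen for 1 sign in all pairs, which fixes their direction with arrays left out; they passed the threshold in 27 refits, all in row 2 alone or without PARN, CNOT6 or NOC. The causes were not tested. With 1 array per shRNA, neither p-values nor counts measure the spread of an shRNA, and dim probes carry most large differences. No paired analysis was possible because each group has 1 array and all carry the number 1, so arrays were matched by slide row instead.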
